A study of Sus scrofa with 16 samples.

Results

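The genes of elastic fibers and microfibrils were taken by symbol from the estimated count and TPM tables of left ventricular RNA from pigs. They were *ELN*, the fibrillin genes *FBN1* and *FBN2*, the fibulin genes *FBLN1*, *FBLN2*, *FBLN5*, *EFEMP1* and *EFEMP2*, and the microfibril-associated genes *MFAP4* and *MFAP5*. All 10 were found among the 22629 genes of the tables and all 10 passed the filter on low counts in every comparison. Their lowest estimated count in any sample was 104, for *EFEMP1*, and the highest was 39845, for *ELN*.

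Elastic fibers are built from a core of crosslinked elastin on a scaffold of fibrillin microfibrils, and they give arteries, lungs and skin their recoil. Tropoelastin, the soluble elastin monomer, is brought onto the microfibrils by short fibulins and is then crosslinked by enzymes of the lysyl oxidase family. In the ventricle these proteins lie in the walls of coronary vessels, in the endocardium and epicardium and between muscle bundles, and fibroblasts and smooth muscle cells are the cells best known for making them.

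Tissue came from 8 White Yorkshire-Landrace farm pigs operated on at 1 month of age and sampled 4 weeks later. In the 4 IR pigs (ischemia/reperfusion) the left anterior descending artery was occluded for 1 h below the second diagonal branch and then reperfused, and the 4 sham pigs had the same operation without closing the artery. Each pig gave 1 scar zone sample and 1 border zone sample, and both surgery groups held 2 females (IR pigs 2 and 14, sham pigs 4 and 5) and 2 males (IR pigs 9 and 11, sham pigs 12 and 13). The scar zone was the myocardium just distal to the suture in both surgery groups, so that in sham pigs it is tissue at a suture that was not tightened and in IR pigs it holds injured and surviving muscle, in proportions that the labels do not give.

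Libraries held 15427663 to 49045206 estimated counts (median 21822696), and log2 CPM of the 16 samples correlated with a Pearson's r of 0.922 to 0.991 over 14136 genes. CPM values are estimated counts scaled for depth by TMM. The cardiomyocyte markers (*TNNT2*, *MYH7* and others, 7 of 7 detected in every sample) summed to between 53383 and 87417 CPM. The scar zone library of female IR pig 14 held 4.49 CPM of the Y-linked *DDX3Y*, where the remaining 7 female libraries held 0.389 to 1.23 CPM and male libraries 68.4 to 103 CPM. Counts of called members that changed without pig 14 are given beside the comparisons.

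The first comparison asked whether the elastic fiber genes differed between IR and sham pigs in the scar zone 4 weeks after surgery. None of the 10 passed an adjusted p of 0.05 (edgeR, quasi-likelihood F test, Benjamini-Hochberg method), and 0% of the 14023 genes tested did so with a fold change of at least 2. When the p was taken unadjusted, again at 0.05 and with the fold threshold of 2, *ELN* and *FBLN1* were higher in IR pigs, 2 of 10 genes where 2.74% of all genes were. With no fold threshold *FBN2*, *MFAP4* and *MFAP5* joined them, 5 of 10 genes against 6.57% of all genes. Without pig 14 these counts were 3, with *EFEMP1* added, and 7, while the shares of all genes were 4.8% and 10.3%. Without pig 11 they were 0 and 3, and the shares 1.51% and 3.24%. The log2 fold change was above 0 for 9 of 10 genes with a median of 0.65 (0.38 without pig 11), beside a median of 0.03 and 53.9% above 0 over all genes. By sex this was not uniform. In females the mean log2 CPM of *ELN*, *FBN2*, *FBLN1* and *MFAP5* was higher in IR than in sham pigs. That of *FBN1*, *FBLN2*, *FBLN5*, *EFEMP1*, *EFEMP2* and *MFAP4* was lower, by -0.07 for *FBLN5* to -1.08 for *EFEMP1*. In males only *FBLN5* was lower (-0.14). In bulk tissue a change in the number of cells that express a gene cannot be told apart from a change in RNA per cell.

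*ELN*, which encodes the elastin core protein, had the largest scar zone fold change of the 10 genes when all pigs were included. Its level in the IR scar zone was 319.8 CPM in female pig 2, 249 in female pig 14, 451 in male pig 9 and 1192 in male pig 11. In the sham scar zone it was 206, 128, 207 and 236 CPM in pigs 4, 5, 12 and 13. Every IR pig lay above every sham pig, with the male pigs 9 and 11 highest. The difference was 1.50 ± 0.46 (log2 fold change ± SE, adjusted p = 0.438, edgeR), and the exact permutation test over 4 against 4 pigs gave p = 0.0286, the smallest value that this design allows. Without pig 11 the *ELN* difference was 0.81, still with an unadjusted p of 0.0105 in edgeR but under a fold change of 2.

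The fibrillins are large glycoproteins that assemble into the microfibril backbone, and *FBN2* is the one best known from developing tissue. *FBN2* measured 46.9, 74.3, 62.7 and 52.3 CPM in the scar zone of IR pigs 2, 14, 9 and 11, and 41.0, 35.2, 43.8 and 29.1 CPM in sham pigs 4, 5, 12 and 13. It was the only member other than *ELN* without overlap between the groups, and its highest IR value was in female pig 14. The log2 fold change was 0.65 ± 0.18 (adjusted p = 0.438, edgeR; exact permutation p = 0.0286). Over all genes, 2.2% had every IR pig above every sham pig in the scar zone. For *ELN* and *FBN2* the groups were also apart in TPM, where the lowest IR values were 129 and 6.63 and the highest sham values 123 and 6.32.

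*FBN1*, the main fibrillin of adult microfibrils, measured 254, 280.1, 488 and 738 CPM in IR pigs 2, 14, 9 and 11 against 434, 353, 270.4 and 282 CPM in sham pigs 4, 5, 12 and 13. Of the 4 IR pigs 2 were above all sham pigs and 1 was below all of them: the female IR pigs were below the female sham pigs and the male IR pigs above the male sham pigs. The log2 fold change of *FBN1* was 0.38 ± 0.33 (adjusted p = 0.626, edgeR) and 0.02 without pig 11.

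The long fibulins FBLN1 and FBLN2 are calcium-binding proteins found with elastin and in basement membranes. *FBLN1* measured 147, 118, 351 and 625 CPM in the scar zone of IR pigs 2, 14, 9 and 11, and between 104 and 127 CPM in the 4 sham pigs. Only female pig 14 fell within the sham range. The log2 fold change was 1.41 ± 0.46 (adjusted p = 0.438, edgeR; exact permutation p = 0.0857), and 0.82 without pig 11. *FBLN2* measured 84.1, 59.7, 142 and 246 CPM in the same IR pigs and 70.0 to 106 CPM in sham pigs, with a log2 fold change of 0.64 ± 0.38 (adjusted p = 0.508, edgeR) that was 0.17 without pig 11. For *FBLN2* both male IR pigs lay above the sham range, pig 2 within it and pig 14 below it.

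The short fibulins differed from each other. FBLN5 and EFEMP2 (fibulin-4) are needed for elastic fiber assembly, while EFEMP1 (fibulin-3) is found mainly in fasciae and other connective tissue. *FBLN5* was nearly level: 239, 206, 159.6 and 229 CPM in the scar zone of IR pigs 2, 14, 9 and 11, and 205 to 233 CPM in sham pigs. Its log2 fold change was -0.09 ± 0.14 (adjusted p = 0.788, edgeR), the only one below 0 in the scar zone, and it was 0.08 when TPM was used in place of counts, a scale on which the median of all genes was 0.15. *EFEMP2* measured 36.6, 38.5, 79.3 and 95.0 CPM in IR pigs 2, 14, 9 and 11 and 37.2 to 42.2 CPM in sham pigs (log2 fold change 0.63 ± 0.29, adjusted p = 0.453, edgeR; 0.35 without pig 11). *EFEMP1* ranged most widely of the 10 genes in the IR scar zone, with 15.2, 7.08, 59.8 and 103 CPM in IR pigs 2, 14, 9 and 11 beside 14.7 to 32.8 CPM in sham pigs (log2 fold change 1.08 ± 0.69, adjusted p = 0.527, edgeR). For both genes the male IR pigs were above the sham range, while pig 2 was below it for *EFEMP2* and pig 14 for *EFEMP1*. The log2 fold change of *EFEMP1* was 0.34 without pig 11, 0.51 with sex as a covariate and 0.41 with 1 factor of unwanted variation.

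MFAP4 binds elastin and fibrillin, and MFAP5 is a small glycoprotein bound to microfibrils. *MFAP4* measured 125, 86.7, 208 and 235 CPM in the scar zone of IR pigs 2, 14, 9 and 11, against 112, 124, 83.6 and 78.2 CPM in sham pigs 4, 5, 12 and 13 (log2 fold change 0.71 ± 0.30, adjusted p = 0.438, edgeR; exact permutation p = 0.114). Both male IR pigs were above all sham pigs and pig 14 was within their range. *MFAP5* measured 129.5, 243, 124 and 259.6 CPM in the same IR pigs and 114 to 131 CPM in sham pigs (0.60 ± 0.24, adjusted p = 0.438, edgeR; exact permutation p = 0.171). The 2 high values of *MFAP5* in CPM were those of female pig 14 and male pig 11.

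The estimated counts and TPM of *MFAP5* disagreed in 1 library. Its counts per unit of TPM, set to a median of 1 over the samples and corrected for each library's own ratio, were 2.36 in the scar zone of pig 14 and 0.849 to 1.21 in the other 15 libraries, and 0.293% of 14015 genes had a wider range. In TPM the *MFAP5* level of pig 14 was 91.5, the lowest of the 4 IR scar zone samples, and the log2 fold change from TPM was 0.22 (limma). For the other 9 members this ratio varied by at most 1.25 times between libraries.

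**Figure D1:**
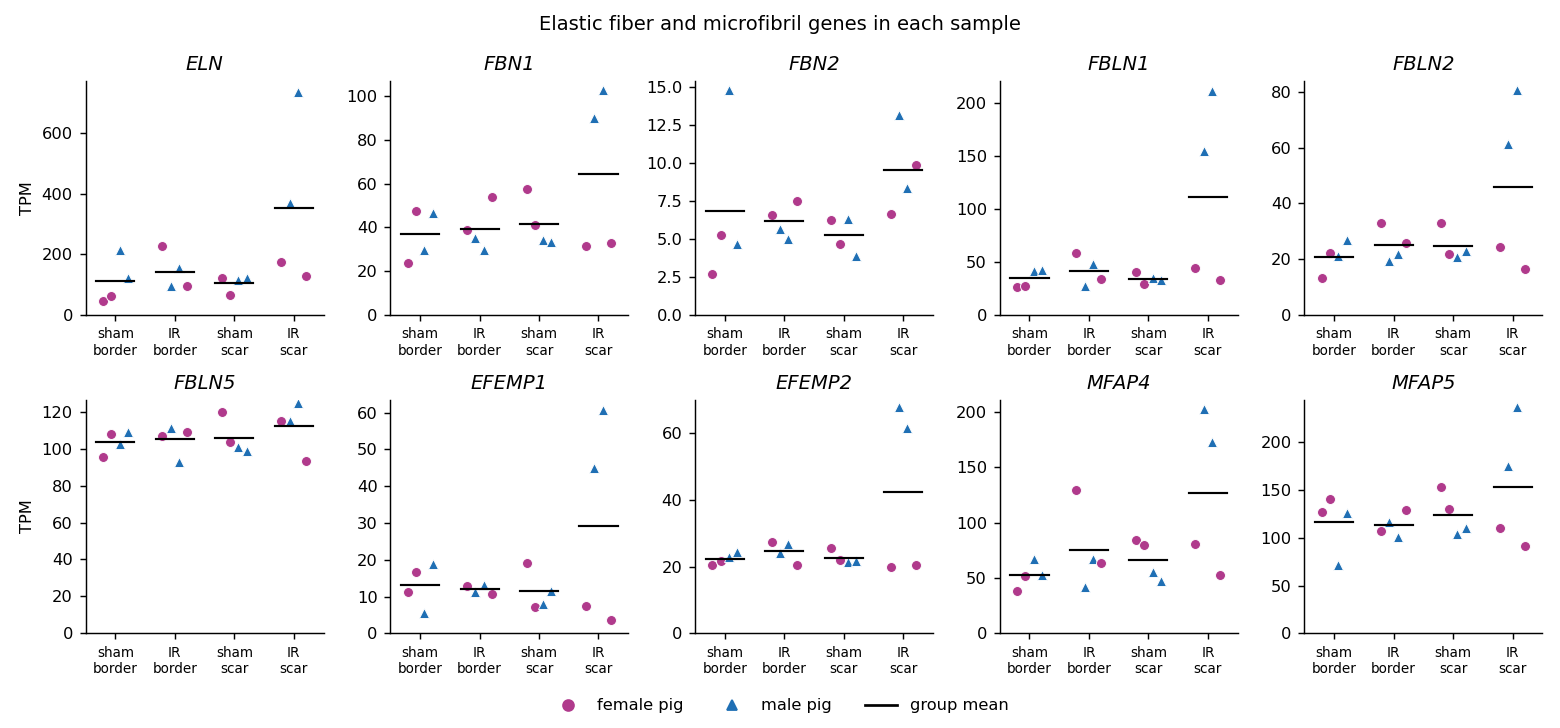
TPM (linear axes from 0) of each of the 10 genes in the sham and IR samples of the border and scar zones, with 4 pigs per group, females as circles, males as triangles and the group mean as a line. In the IR scar zone the 2 male pigs lay above the 2 female pigs in TPM for all genes but *FBN2*, for *FBLN5* only narrowly (115.05 against 114.97). In CPM this did not hold for *FBLN5* and *MFAP5* either. The share of all genes in this order was not counted, but 26.3% had both male IR scar zone samples above all other samples in TPM. *FBLN5* lay between 92.7 and 125 TPM in all 16 samples.

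TPM is scaled for transcript length and allows levels to be compared between genes. In the sham scar zone the order of mean TPM was *MFAP5* (124 ± 22.2, SD, n = 4), *ELN* (106 ± 27.4), *FBLN5* (106 ± 9.65), *MFAP4* (66.6 ± 18.2), *FBN1* (41.5 ± 11.3), *FBLN1* (34.3 ± 4.83), *FBLN2* (24.5 ± 5.58), *EFEMP2* (22.5 ± 1.96), *EFEMP1* (11.4 ± 5.42) and *FBN2* (5.27 ± 1.19). Neighbours in this order were in the same order in all 4 pigs except for *MFAP5* and *ELN*, *ELN* and *FBLN5*, *FBN1* and *FBLN1*, and *FBLN2* and *EFEMP2*. In the IR scar zone *ELN* was first in each of the 4 pigs, at 353 ± 277 TPM, followed by *MFAP5* (153 ± 65.8), *MFAP4* (127 ± 72.1), *FBLN5* (112 ± 13.4) and *FBLN1* (111 ± 87.0), whose order varied between pigs. *ELN* transcripts made up 26.7 to 41.0% of the summed TPM of the 10 genes in the IR scar zone and 12.9 to 24.3% in the sham scar zone. The same share spanned 17.3 to 30.4% in the IR border zone and 11.1 to 36.1% in the sham border zone.

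The same question was asked of the border zone, next to the injury. None of the 10 genes passed the adjusted threshold in edgeR (adjusted p between 0.988 and 0.995; 0% of 13728 genes called) and none in DESeq2. At an unadjusted p of 0.05 with a fold change of at least 2, 0 of 10 were higher where 0.517% of all genes were. The median log2 fold change was 0.12, beside 0.00 over all genes, with 7 of 10 above 0. Without pig 14 the median was 0.09 and 5 of 10 were above 0, as were 50.4% of all genes. Without pig 13 the count above 0 was 8. No member had all IR pigs above all sham pigs, which 0.794% of all genes did, and the exact permutation p was at least 0.343 for each.

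In the border zone *ELN* varied between pigs of both groups. It measured 410.5, 171, 157 and 308 CPM in IR pigs 2, 14, 9 and 11, and 91.6, 114, 368 and 223 CPM in sham pigs 4, 5, 12 and 13 (log2 fold change 0.40 ± 0.44, edgeR). The highest values of the 2 groups, in female IR pig 2 and male sham pig 12, differed by less than the spread within either group. *MFAP4* had the highest border zone fold change, 0.57 ± 0.32, with 199.6, 95.7, 57.2 and 114 CPM in the IR pigs and 61.3 to 99.0 CPM in sham pigs. The border zone library of pig 2, which held the highest border zone value of *MFAP4*, *ELN*, *FBLN1* and *FBLN2*, also held the highest sum of 6 smooth muscle markers of all 16 samples, at 904 CPM against 314 to 837 CPM in the others. The part of smooth muscle in these values was not tested. Without pig 2, *MFAP4* fell to 0.17 and *ELN* to 0.09.

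*FBN2* in the border zone was set by a single sham pig: pig 12 measured 99.1 CPM, while the other 7 samples lay between 21.4 and 52.2 CPM. Its log2 fold change was -0.14 with all pigs and 0.50 without pig 12. *FBLN5* was again the steadiest gene, with 203 to 230.2 CPM over the 8 border zone samples.

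Whether the IR effect differed between the zones was tested as an interaction over the 16 samples. No member passed (edgeR adjusted p = 1.00 for each; 0% of 14278 genes called), and at an unadjusted p of 0.05 with a fold change of 2 the count was 0 of 10 beside 1.32% of all genes. The scar zone effect exceeded the border zone effect by 1.21 ± 0.82 for *EFEMP1*, 1.15 ± 0.57 for *FBLN1*, 1.12 ± 0.70 for *ELN* and 0.81 ± 0.48 for *FBN2*, on the log2 scale, and the median over the 10 genes was 0.51 against 0.01 over all genes. *MFAP4* had a difference of 0.16 ± 0.48, which was 0.64 without pig 2 and -0.24 without pig 9. Single pigs moved these values: without pig 11 they were 0.55 for *EFEMP1*, 0.67 for *FBLN1* and 0.49 for *ELN*, and without pig 12 *FBN2* was 0.25. By the unadjusted p with the fold threshold, 2 members passed without pig 2 (2.42% of all genes), 1 without pig 4 (1.26%) and 1 without pig 14 (2.18%). With the pig as a block, which pairs the zones of 1 heart, the differences were 0.90 for *FBLN1*, 0.78 for *ELN* and 0.59 for *FBN2* and no call was gained.

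Scar and border zone were then compared within the IR hearts. In edgeR 0 of 10 genes passed the adjusted threshold (0% of 14170 genes), and 0 of 10 passed an unadjusted p of 0.05 with a fold change of 2 where 1.69% of all genes did. The log2 difference, scar over border, was 1.14 ± 0.51 for *FBLN1*, 1.08 ± 0.51 for *ELN*, 1.00 ± 0.67 for *EFEMP1* and 0.45 ± 0.18 for *FBN2*. Without pig 11 the first 3 were 0.67, 0.47 and 0.35. Only *FBN2* had an unadjusted p of at most 0.05 (0.0306 in edgeR), as 3.55% of all genes did in that direction. With the pig as a block, which fits the pairing of the zones, *FBN2*, *MFAP5* and *ELN* did, 3 of 10 members beside 6.49% of all genes. With the fold threshold and no block, 2 members passed without pig 2 (2.6% of all genes) and 1 without pig 14 (2.61%). Pig by pig, the scar zone value of *ELN* minus that of the border zone was -0.36 and 0.55 in the females 2 and 14 and 1.52 and 1.95 in the males 9 and 11, on the log2 CPM scale. For *FBLN1* these values were -0.38, 0.07, 2.06 and 1.82, and for *EFEMP1* -0.67, -1.60, 1.62 and 1.90. In CPM, scar exceeded border in all 4 IR pigs for *FBN2* and *MFAP5* alone, where the exact sign-flip permutation test gave p = 0.125, the smallest that 4 pairs allow. In TPM *MFAP5* went the other way in pig 14, with 91.5 in the scar and 129 in the border zone.

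The zones were compared in sham hearts in the same way. The median over the 10 genes was 0.00 with a range of -0.36 to 0.33 in log2 scar over border, 0 of 10 genes passed the adjusted threshold in edgeR (0% of 13803 genes) and 0 of 10 were higher at the unadjusted p with a fold change of 2, as 0.029% of all genes were. The within-pig differences of the 4 IR pigs were compared with those of the 4 sham pigs by the exact permutation test, and p was 0.171 for *MFAP5* and higher for the other 9 genes.

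**Figure D2:**
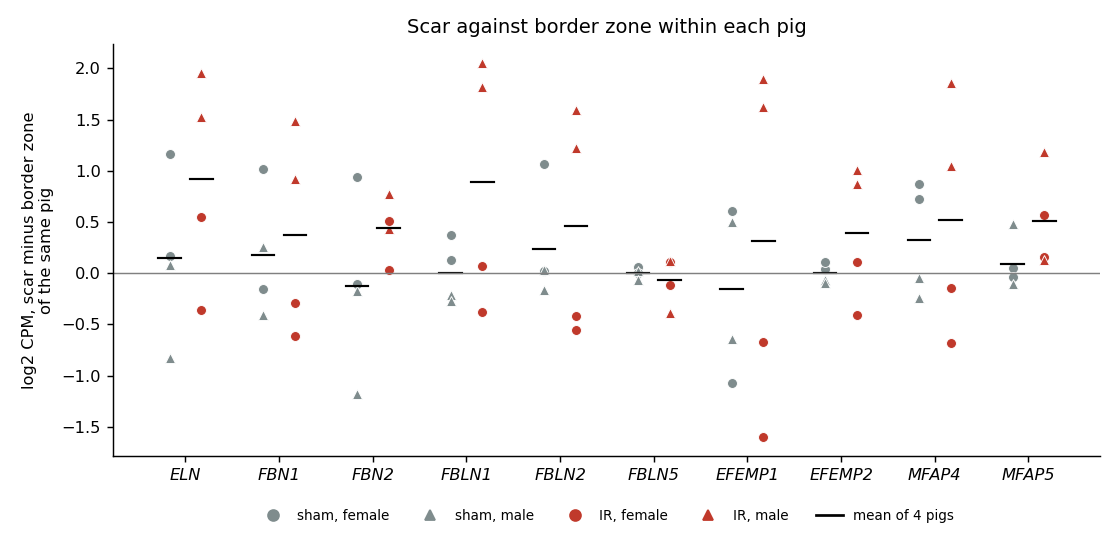
Log2 CPM of the scar zone minus that of the border zone of the same pig, for the 4 sham pigs (grey) and 4 IR pigs (red), with females as circles, males as triangles and the mean of 4 pigs as a line. The 2 male IR pigs were above 0 for all genes except *FBLN5*, while the female IR pigs lay on both sides of 0.

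Male and female IR pigs stood apart in the scar zone, and the IR effect was therefore compared between the sexes, a comparison chosen after the values were seen and resting on 2 pigs of each sex and surgery. Its p-values, those of collagen and partner genes included, therefore describe a difference that had already been seen and are no independent evidence of it. Sex cannot be told apart here from any other difference between these 4 IR pigs, such as the extent of injury in the piece of tissue sampled. The IR effect in males minus that in females passed an adjusted p of 0.05 and a fold change of 2 for *FBN1*, *EFEMP2* and *MFAP4* (edgeR), 3 of 10 genes where 1.11% of all genes had a larger effect in males. The median of the 10 genes was 1.49, beside 0.00 over all genes, and 2.74 for the 5 fibrillar collagen genes, all of which passed.

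*FBN1* had an interaction of 1.72 ± 0.29 (adjusted p = 0.0384), *MFAP4* of 1.63 ± 0.26 (adjusted p = 0.0361) and *EFEMP2* of 1.35 ± 0.19 (adjusted p = 0.0229), all in edgeR on the log2 scale. *EFEMP1* had the largest value, 3.13 ± 0.68 (adjusted p = 0.0663), and *FBLN1* (1.88 ± 0.37, adjusted p = 0.0540) and *FBLN2* (1.72 ± 0.40, adjusted p = 0.0797) also missed the threshold in edgeR. *ELN*, whose female IR pigs were above the sham pigs as well, had 1.13 ± 0.58 (adjusted p = 0.345), and 0.28 without pig 11. *FBN2*, *MFAP5* and *FBLN5* had 0.00, 0.17 and -0.04, though *MFAP5* was 1.41 when TPM was used (limma, adjusted p = 0.0197; median of all genes 0.38). When 1 pig was left out, a cell of the design held 1 sample and the spread came from the other cells. Then 0 of 10 genes passed without pig 4, 5, 12, 13 or 14, 1 without pig 2, 2 without pig 11 and 3 without pig 9, and the share of all genes larger in males was between 0% (pigs 12 and 13) and 0.782% (pig 9), beside 1.11% with all pigs. The values themselves stayed between 1.40 and 2.00 for *FBN1*, 1.22 and 1.49 for *EFEMP2* and 1.38 and 1.92 for *MFAP4*.

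For 7 of the 10 genes (*ELN*, *FBN1*, *FBLN1*, *FBLN2*, *EFEMP1*, *EFEMP2* and *MFAP4*) the 2 male IR scar zone samples were above all other 14 samples in CPM, and for 8 of 10 in TPM, with *MFAP5* added. Of the 14023 genes tested in the scar zone, 10.9% showed this in CPM and 26.3% in TPM, and these samples were singled out after their values were seen. The same samples were highest for 5 of 5 fibrillar collagen genes. The 7 fibroblast markers (*PDGFRA*, *DDR2*, *TCF21*, *DCN*, *LUM*, *COL1A1* and *COL3A1*, all detected in every sample) summed to 19554 and 25597 CPM in the male IR scar zone and to between 3801 and 6431 CPM in the other 14 samples. Without both collagens the sum was 1559 and 2175 CPM against 653 to 956 CPM. In the IR scar zone *PDGFRA*, a receptor of fibroblasts, was 13.7 and 16.4 CPM in females and 45.2 and 45.7 CPM in males. The 6 leucocyte markers also summed highest in these samples, to 261 and 279 CPM against 97.2 to 203 CPM in the other 14. The mean log2 CPM of the 7 cardiomyocyte markers was lowest in these samples, at 11.5 in pig 9 and 11.9 in pig 11, with the next sample at 12.02. Their summed CPM was 53383 and 66943 there and 62757 to 87417 in the other 14. The part of fibroblast, leucocyte or cardiomyocyte content in the fold changes of the elastic fiber genes was not tested.

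In the border zone the interaction with sex ran mostly the other way and did not pass for any member in edgeR, where 0.0146% of all genes passed. Its median was -0.61, with -1.84 ± 0.65 for *ELN* (adjusted p = 0.650) and -1.53 ± 0.65 for *FBN2* (adjusted p = 0.712), and 3 of 10 genes were above 0. On leaving out a pig the median lay between -0.32 and -0.86 and *ELN* between -1.08 and -2.41. *FBN2* was -0.52 without sham pig 12, and between -1.18 and -2.12 without any other pig.

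**Figure D3:**
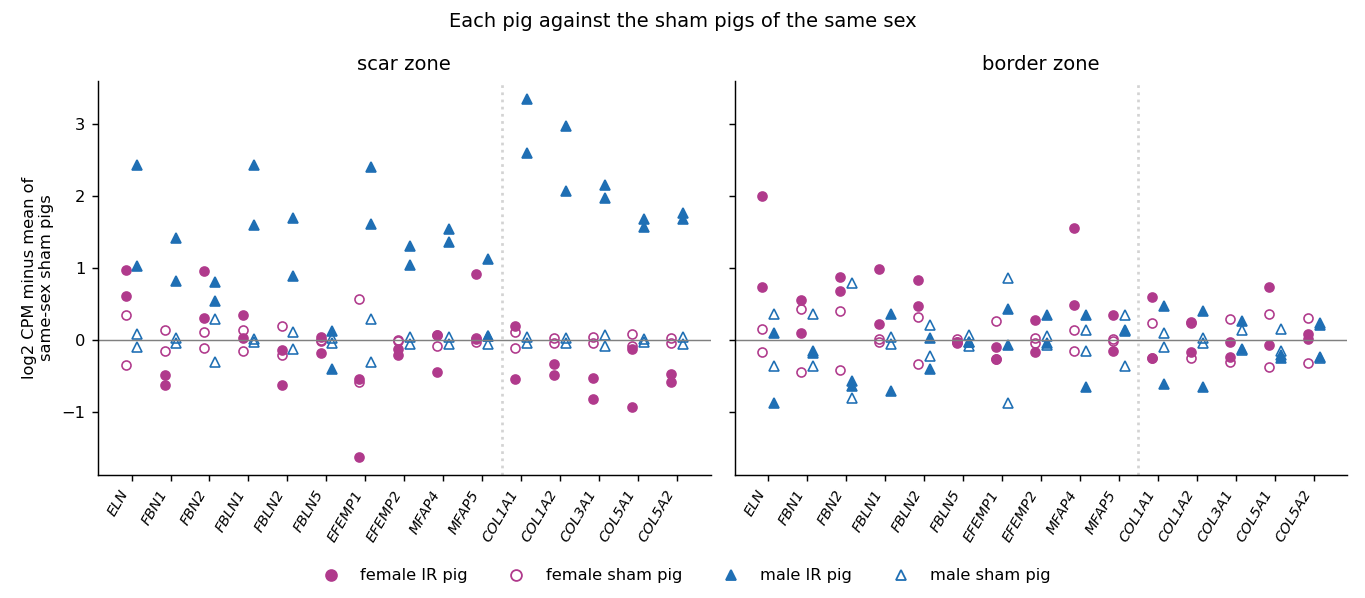
Log2 CPM of each pig minus the mean of the sham pigs of the same sex, in the scar zone (left) and the border zone (right), for the 10 elastic fiber genes and the 5 fibrillar collagen genes (right of the dotted line); filled symbols are IR pigs, open symbols sham pigs, circles females and triangles males. In the scar zone both male IR pigs were over 0.8 above their sham mean for the 7 genes named in the text, and both female IR pigs lay below both male IR pigs for these genes.

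Fibrillar collagens are the main fibers of a scar and the closest other group of matrix genes. Their scar zone log2 fold changes had a median of 1.13, above the 0.65 of the elastic fiber genes. Each elastic fiber gene was therefore set against the mean log2 CPM of *COL1A1*, *COL1A2*, *COL3A1*, *COL5A1* and *COL5A2* in the same sample. Relative to these collagens *ELN* was higher in IR than in sham pigs by 0.40 and *FBLN1* by 0.24 in the scar zone, and the other 8 genes were lower, from -0.20 for *FBN2* to -0.96 for *FBLN5*. These values pooled unlike sexes. In males all 10 genes were lower relative to the collagens in IR pigs, from -0.17 for *FBLN1* and *EFEMP1* to -2.32 for *FBLN5*, with *ELN* at -0.45. In females 8 of 10 were higher, among them *ELN* (1.26), *FBN2* (1.09), *MFAP5* (0.92) and *FBLN1* (0.65), and *FBN1* and *EFEMP1* were lower. The collagens themselves were each lower in female IR than female sham pigs, from -0.17 for *COL1A1* to -0.67 for *COL3A1* in log2 CPM. *FBLN2* (-0.38), *MFAP4* (-0.18), *EFEMP2* (-0.16) and *FBLN5* (-0.07) were also lower in female IR pigs, and were higher only relative to the collagens. The pooled value of *ELN* was 0.72 without pig 9. In none of the 20 comparisons, 10 in each zone, did the exact permutation p fall under 0.20, so these values lie within the spread between pigs. The ratio of *FBLN1* to collagen was the steadiest in the IR scar zone, with an SD of 0.32 over the 4 pigs, while that of *FBLN5* had an SD of 1.43.

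The members were also compared by their pattern over samples. Over the 16 samples, which share libraries across genes, 8 of 45 pairs of members had a Pearson's r of log2 CPM of at least 0.8 and 9 had one below 0. For each pair the 2 samples farthest from the median of the gene listed first were then left out, which left 1 pair, *ELN* and *FBLN1* (0.82). The count thus depends on the most extreme samples, which need not be the same for each pair. Dropping them narrows the range of a gene and tends by itself to lower r. The genes most like each member among 12144 genes with symbols were then listed by r, as a description. *FBLN1* was most like *COL1A1*, *ID2* and *TNC* (0.96 each), of which *TNC* encodes the wound matrix protein tenascin C. *EFEMP2* was most like *RARRES2*, *COL1A2* and *COL1A1* (0.97, 0.95 and 0.95), *FBLN2* like *CD248* (0.96), and *EFEMP1* like *GFPT2* and *WT1* (0.96 each). *ELN* was most like *NUAK1* (0.92), and *MFAP4* like *CHPF* (0.93), a gene of chondroitin sulfate synthesis. Leaving out the 2 samples farthest from the member's own median lowered r to 0.59 for *EFEMP2* with *COL1A2* and 0.74 for *FBLN1* with *COL1A1*. For *EFEMP1* with *WT1* it was still 0.92. *WT1*, which marks the epicardium, was 10.4 and 12.8 CPM in the male IR scar zone and 4.70 to 9.04 CPM in the other samples.

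The other genes of elastic fiber assembly and turnover were taken as a list of 38 by role, of which 33 were tested in the scar zone. None passed the adjusted threshold in edgeR, 8 were higher and 0 lower at an unadjusted p of 0.05 with a fold change of 2, 26 were above 0, and the median was 0.49, beside 2.74% higher, 53.9% above 0 and a median of 0.03 over all genes. The count of 8 was 4 without pig 9 (1.73% of all genes), 5 without pig 5 (1.87%) or pig 11 (1.51%), and 11 without pig 14 (4.8%). With limma on log2(TPM + 1) it was 3 (1.04%). In the border zone 0 of 32 passed by the unadjusted p with a fold change of 2, where 0.517% of all genes were higher.

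Among the 5 crosslinking enzymes, *LOX* (1.76 ± 0.62) and *LOXL1* (1.10 ± 0.38), which act on elastin and collagen, were among the 8, and all 5 were above 0. *LOX* measured 17.5 to 141 CPM in the IR scar zone and 14.5 to 25.1 CPM in the sham scar zone. Of 20 tested genes for proteins bound to microfibrils or elastin, 4 were among the 8. They were *BGN* (1.82 ± 0.46), the small proteoglycan biglycan, *LTBP2* (2.02 ± 0.57), a latent TGF-beta binding protein, the fibulin gene *FBLN7* (2.04 ± 0.66) and *ADAMTS17* (1.25 ± 0.44). *BGN* was above the sham range of 98.6 to 115 CPM in each IR pig, whose values ran from 125 to 674 CPM. Of the proteases, 5 were tested, and *CTSL* (1.92 ± 0.70) and *MMP9* (3.84 ± 1.56) were among the 8. *MMP9* was at 0 to 22.7 CPM in the IR scar zone (mean 5.86, SD 11.2) and 0.158 to 0.690 CPM in the sham scar zone. It was near the floor in most libraries, and its fold change rests on a single IR pig. None of the 3 elastin receptor complex genes was among the 8. The adjusted p was 0.438 in edgeR for each of the 8 genes. In edgeR the interaction with sex in the scar zone passed for 6 of 33 partner genes, all larger in males, as it did for 1.11% of all genes. They were *LOX* (2.31 on the log2 scale, adjusted p = 0.0229), *BGN* (1.94, adjusted p = 0.0424), *ADAMTS17* (2.10, adjusted p = 0.0403) and, named after their values were seen, *MFAP2*, *MMP2* and *MMP14* (1.45 to 1.97).

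**Figure D4:**
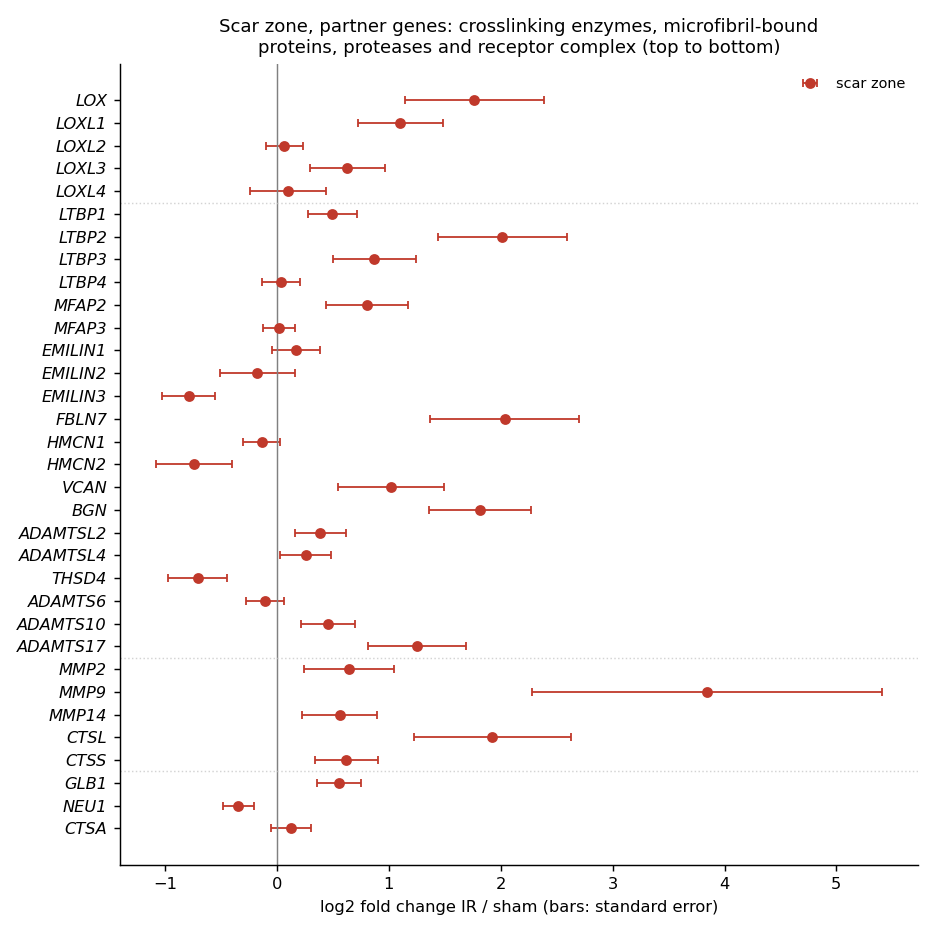
Log2 fold change of IR over sham pigs in the scar zone (points, with standard errors as bars; 4 pigs against 4) for the 33 tested partner genes, grouped by dotted lines into crosslinking enzymes, microfibril-bound proteins, proteases and the elastin receptor complex. Of the 33 points 26 lie above 0, and *MMP9* at 3.84 is the highest and has the widest error.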

How the data were processed

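Polyadenylated RNA from 16 left ventricular samples of 8 pigs was sequenced from stranded libraries. The authors trimmed reads with Trimmomatic 0.33, aligned them with HISAT2 2.0.5 and quantified Ensembl pig cDNA with kallisto 0.43.1 (versions per the submitters' processing notes). The genome build and Ensembl release are not given in the sources used here. The authors deposited estimated counts, unscaled for depth, in which reads shared by near-identical transcripts are divided between them. They also deposited TPM, scaled for transcript length and depth. No strand error or antisense overlap was examined.

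Estimated counts were rounded and tested in edgeR 4.0.16 (R 4.3.3) with TMM scaling, filterByExpr (minimum count 10, total 15), the quasi-likelihood test and Benjamini-Hochberg adjustment over all genes tested. Calls required a fold change of at least 2 and a p, adjusted or unadjusted, no higher than 0.05. Log2 CPM used a prior count of 2. Permutation tests were exact and two-sided. At the observed depths 3 counts correspond to 0.0612 to 0.194 CPM. Scripts were tested on simulated data.

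Groups came from the sample labels. In the comparisons of IR with sham pigs within 1 zone, p-values measure the spread between pigs. The main fits of the zone comparisons took the 2 samples of a pig as independent, so their p-values and SEs ignore the pairing. The fits with the pig as a block and the tests on within-pig differences keep it. Zones pair by pig: deviations of the 2 samples of a pig from their group means correlated at 0.353 to 0.660 in IR and 0.439 to 0.706 in sham pigs, over 14136 genes. The members and lists were chosen with earlier results of these data known. The named genes are the 10 members, 5 collagens, partner genes past the unadjusted threshold in the scar zone (up to 10 by p) or the border zone (none were), the 3 genes most correlated with each member, of which the text names those it describes, and cell type marker lists. *DDX3Y* was named after its values were seen.

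Alternatives were DESeq2 1.42.0, upper-quartile scaling, no filter, limma 3.58.1 on log2(TPM + 1) and log2(TPM + 0.1), sex as a covariate, 1 fit of all samples, 1 factor of unwanted variation (RUVg written out with 5000 control genes, since the study does not state its RUVSeq settings), the pig as a block, no fold threshold, and leaving out each pig. No sequences are printed.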

Additional observations from a re-analysis of the deposited data

Results flagged for a closer look

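In the scar zone 3 genes passed the interaction of surgery with sex, a test chosen after the male IR pigs were seen to be high and so no independent evidence of the difference. The interaction (males minus females, log2 scale, edgeR, 2 pigs per sex and surgery) was 1.72 for *FBN1* (adjusted p = 0.0384), 1.35 for *EFEMP2* (adjusted p = 0.0229) and 1.63 for *MFAP4* (adjusted p = 0.0361), and none of the 3 passed without pig 4, 5, 12, 13 or 14. For *FBLN2* (1.72, adjusted p = 0.0797, edgeR) and *EFEMP1* (3.13, adjusted p = 0.0663, edgeR) the interaction did not pass. They are listed because both male IR pigs were above, and both female IR pigs below, the mean of the sham pigs of their sex.

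In the border zone both female IR pigs were above and both male IR pigs below the mean of the sham pigs of their sex for *FBN1* (-0.49, adjusted p = 0.88 in edgeR) and *FBN2* (-1.53, adjusted p = 0.712 in edgeR), and neither difference passed. The direction in males rested on 1 sham pig for each gene. The log2 CPM of male IR minus sham pigs was -0.16 for *FBN1* and 0.20 without pig 13, and -0.60 for *FBN2* and 0.20 without pig 12.

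Dixon's criterion was applied to the 4 pigs of each group for each gene, 40 groups in all, of which chance takes about 1 in 20. It marked *MFAP5* in the border zone of IR pigs, where pig 14 at 163 CPM had a gap of 0.957 of the group's range, and *MFAP5* in the border zone of sham pigs, where pig 12 at 81.6 CPM had a gap of 0.879 of the range. In TPM these gaps were 0.429 and 0.784, both under the critical value for 4 samples.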

How the results depend on the processing

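For the 5 planned comparisons the number of members past the adjusted threshold stayed at 0 under every alternative run. The scar zone count of 2 by the unadjusted p (2.74% of all genes) became 5 with no fold threshold (6.57%) and 1 with limma on unfiltered TPM (0.482%). It ranged from 0 without pig 11 (1.51%) to 3 without pig 14 (4.8%) when a pig was left out. The difference between zones gave 0 (1.32% of all genes), with 1 in DESeq2 (1.32%) and 0 to 2 on leaving out a pig. Calls were gained without pig 2 (2.42%), pig 4 (1.26%) or pig 14 (2.18%). The scar against border count in IR pigs was 0 (1.69% of all genes), with 2 in DESeq2 (1.75%), 1 without a filter (2.27%) and 1 with no fold threshold (3.55%). On leaving out a pig it was 0 to 2 (0.488% to 2.61%). The interaction with sex called 3 genes (1.11% of all genes were larger in males), 6 in DESeq2 (3.33%) and without a filter (1.72%), 7 with limma on TPM (3.34%) and 0 to 3 on leaving out a pig. The alternatives for the 8 partner genes in the scar zone were added after seeing the data. The count of 8 was 3 with limma on log2(TPM + 1), filtered (1.04% of all genes) or not (0.482%). With a pseudocount of 0.1 it was 4 (1.65%), and with 1 factor of unwanted variation 5 (1.78%). It was 4 to 11 (1.51% to 4.8%) when a pig was left out. Members lower than collagens in the border zone numbered 2, and 0 to 5 on leaving out a pig. With the pig as a replicate block, counts of members by the adjusted p, and by the unadjusted p with the fold threshold, were 0 in each comparison of zones. With no fold threshold the count in IR pigs went from 1 (3.55% of all genes) to 3 (6.49%).

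Signs turned for values near 0. Without pig 11 they also turned for the differences between zones of *FBN1* (0.33 with all pigs) and *FBLN2* (0.42 with all pigs). *FBLN5* in the scar zone was 0.077 with limma on log2(TPM + 1), filtered or not, 0.078 with a pseudocount of 0.1, and -0.17 to 0.00025 on leaving out a pig. In the border zone limma on TPM gave 0.076 (pseudocount 1) and 0.12 (pseudocount 0.1) for *FBN2*, 0.0139 and 0.0140 for *FBLN5*, and 0.0030 and 0.016 for *EFEMP1*. Leaving out pigs there gave *FBN1* -0.12 to 0.21, *FBN2* -0.39 to 0.50, *EFEMP1* -0.37 to 0.13 and *MFAP5* -0.039 to 0.17. For the difference between zones *FBN1* ran from -0.12 to 0.65, *FBLN2* from -0.10 to 0.73, *MFAP4* from -0.24 to 0.64 and *FBLN5* from -0.13 to 0.012, and *FBLN5* was 0.063 with limma. *FBLN5* in the IR zones was 0.088 with limma and up to 0.043 on leaving out a pig (pig 9). The sex interaction of *FBN2* was -0.0023 in DESeq2 and -0.29 to 0.36 on leaving out a pig, that of *FBLN5* 0.37 with limma and -0.32 to 0.21, and that of *MFAP5* -0.45 to 0.68.

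With 4 pigs per group an exact permutation p cannot fall under 0.0286, and with 2 against 2 not under 0.333. Limma on TPM moved the median of all genes to 0.15 in the scar zone (0.17 with a pseudocount of 0.1), 0.12 for the difference between zones, 0.13 for IR zones and, for the interaction with sex, 0.38 in the scar and -0.13 in the border zone.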

Other observations

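The other cell type markers were summed in the scar zone as a description of the tissue sampled. The 6 endothelial markers came to 837 to 1152 CPM in IR and 1016 to 1144 CPM in sham pigs, and the 4 pericyte markers to 729 to 950 CPM and 804 to 964 CPM. The 6 smooth muscle markers came to 398 to 837 CPM in IR and 424 to 687 CPM in sham pigs. The 6 leucocyte markers came to 132 to 279 CPM in IR, with both males above both females, and 107 to 201 CPM in sham pigs. Adipocyte markers were near the floor, with *PLIN1* and *LEP* at 0 in at least 1 sample. Of 6 epicardial and mesothelial markers the tables held *WT1* and *UPK1B*, and the other 4 were not analysed here. The sum of *WT1* and *UPK1B* was highest, at 11.6 and 15.4 CPM, in the scar zone of male IR pigs. It came to between 5.11 and 9.26 CPM in all other samples of both zones. *WT1* made up most of the sum in the male IR scar zone, at 10.4 and 12.8 CPM.

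Tenascin C, a matrix protein of wounds and one of the genes most like *FBLN1*, also differed between the IR pigs. *TNC* was 148 and 221 CPM in the male IR scar zone samples, 8.85 and 12.8 CPM in the female ones and 4.98 to 12.3 CPM in the sham scar zone. *CD248*, a gene of stromal cells and the one most like *FBLN2*, was 28.6 and 47.6 CPM in the males and lower in both females of the IR scar zone, down to 7.08 CPM.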
